A study of Mus musculus with 14 samples.

Results

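Faim2, Fas and 5 receptors of the tumor necrosis factor (TNF) receptor superfamily (Tnfrsf10b, Tnfrsf1a, Tnfrsf1b, Tnfrsf11b and Tnfrsf12a) were followed in cardiac fibroblasts before and after myocardial infarction (MI). They are 7 of 19494 genes measured, taken by gene symbol, and each has 1 row in the value table. The genes were chosen by their log2 signals and differences from uninjured fibroblasts in these same arrays, which earlier results had shown. Their levels and differences are therefore given as a description, without a test.

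Fas, Tnfrsf1a and Tnfrsf10b carry a death domain. On binding of their ligands (Fas ligand, TNF and TRAIL) they can recruit the adaptor Fadd and the initiator caspase Casp8, which starts apoptosis, and when caspases are blocked the kinase Ripk3 and the pore former Mlkl can kill the cell by necroptosis. Tnfrsf1b and Tnfrsf12a have no death domain and signal through TRAF proteins to NF-kappaB, and Tnfrsf11b (osteoprotegerin) is a secreted decoy. Faim2, a membrane protein of the TMBIM family known mostly from neurons, inhibits apoptosis that starts at Fas.

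The cells were GFP-positive cells sorted from TCF21-MerCreMer;R26GFP mice on a C57BL/6 background, all treated with tamoxifen, so that every group carries the same alleles and the same labelling. The tamoxifen-regulated Cre is expressed from the Tcf21 locus, which is active in resident cardiac fibroblasts, and GFP stays on in the cells and their progeny. There were 3 arrays from the left ventricle of uninjured hearts and, from the infarct area, 3 arrays at 3 d, 3 at 7 d, 2 at 2 wk and 3 at 4 wk after MI, which was made by permanent ligation of the left coronary artery. The age of the mice is not in the labels, and each array is labelled as a biological replicate. Because these are sorted bulk samples, fewer cells of a type and less RNA per cell cannot be told apart.

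The array medians lay between 6.34 and 6.46 on the log2 scale, and 10352 to 10814 genes per array exceeded 6.04, the background level, below which lay 95 percent of the signals of 1412 odorant and vomeronasal receptor genes. Arrays of a group correlated at 0.971 to 0.992. The 5 arrays numbered 1 stood apart from the other 9: they held identical values in 21 rows, which was true of 0 rows in the arrays numbered 2 or 3. Of these 21 rows, 17 were control rows and 4 were gene rows. A low class of Y-linked signal held replicate 2 at 7 d, both arrays at 2 wk and replicate 1 at 4 wk. All 5 measured fibroblast markers were above background in every group. Macrophage markers moved with time: 11 of 11 exceeded background at 7 d against 4 of 11 in uninjured fibroblasts, and the log2 of their summed signal was 13.1 to 15.3 at 7 d against 9.02 to 9.55 in uninjured fibroblasts. Endothelial and cardiomyocyte markers were low at 3 d. The log2 of the summed signal of the 5 endothelial markers was 8.35 to 9.66 at 3 d against 10.2 to 12.2 in uninjured fibroblasts, and that of the 6 cardiomyocyte markers 9.02 to 9.26 at 3 d against 9.72 to 12.5 in uninjured fibroblasts. In each of these lists 1 gene passed the test as lower at 3 d (Tie1 and Tnnt2).

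Promoter sequences were matched for 4 of the 7 genes (Fas, Tnfrsf1a, Tnfrsf1b and Tnfrsf12a) in the RefSeq table on GRCm38.p6, and their 250 bases before the start were searched on both strands for TTCNNNGAA (bound by STAT factors), the NF-kappaB consensus and the GC box GGGCGG, motifs chosen after the sequences were seen. TTCNNNGAA was found once in each of 3 of the 4 promoters and in 7.02% of 32851 promoters of the same length. The GC box was found in Fas (1 match), Tnfrsf1b (2) and Tnfrsf12a (5), against 32.7% of all promoters, and the NF-kappaB consensus in 0 of the 4, against 3.9%. The 40 bases around TTCNNNGAA are shown because receptors of both kinds, with and without a death domain, hold it, with the match in capitals. Fas lies on the plus strand at chr19:34290551-34290590, Tnfrsf1a on the plus strand at chr6:125349473-125349512, and Tnfrsf1b on the minus strand at chr4:145247027-145247066.
Fas: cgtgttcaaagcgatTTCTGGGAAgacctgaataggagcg
Tnfrsf1a: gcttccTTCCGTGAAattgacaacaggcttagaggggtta
Tnfrsf1b: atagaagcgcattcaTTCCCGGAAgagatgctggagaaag
These matches are letters in a window and were not measured as bound sites. None of these 3 genes had arrays of a time after MI that all lay above, or all lay below, the uninjured arrays.

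Faim2 was low at 3 d and highest at 4 wk after MI. Its log2 signals were 6.46, 7.64 and 7.79 in uninjured fibroblasts, 5.61, 5.39 and 6.60 at 3 d, 7.12, 7.89 and 7.44 at 7 d, 9.52 and 9.83 at 2 wk, and 11.01, 10.19 and 10.47 at 4 wk. The arrays at 2 and 4 wk were all above those of uninjured fibroblasts, while those at 3 and 7 d overlapped them. In the order of levels (3 d, uninjured, 7 d, 2 wk, 4 wk) the first 3 overlapped with their neighbours, and the steps to 2 wk and to 4 wk did not overlap.

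The means of Faim2 were 7.30 ± 0.73 in uninjured fibroblasts, 5.87 ± 0.64 at 3 d, 7.49 ± 0.39 at 7 d, 9.68 ± 0.22 at 2 wk and 10.56 ± 0.42 at 4 wk (SD, n = 3, 3, 3, 2 and 3). The mean at 3 d was not above the background level, so that its size there is not resolved by the array. The difference from uninjured fibroblasts was 2.38 ± 0.43 at 2 wk (SE, 5.20-fold) and 3.26 ± 0.39 at 4 wk (9.60-fold), with 95% intervals of 1.45 to 3.31 and 2.43 to 4.10. At 3 d it was -1.43, with an interval of -2.27 to -0.60. The span between the lowest and highest group mean, 4.69 on the log2 scale, was the largest of the 7 genes. Its lower end is the 3 d mean, which was not above background. The median span over all genes, 0.58, is given for scale only, since the genes were chosen by such differences.

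The steps of Faim2 between neighbouring times were 1.62 for 7 d over 3 d, 2.19 for 2 wk over 7 d and 0.88 for 4 wk over 2 wk. The interval of the last step, -0.05 to 1.82, included 0 although the arrays did not overlap. At 2 wk both arrays belonged to the low class of Y-linked signal, and with that class in the fit the difference from uninjured fibroblasts was 1.73. The low-class array had the highest Faim2 signal of its group at 4 wk (11.01) and at 7 d (7.89). Without the arrays numbered 1 the difference at 4 wk was 2.61.

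**Figure D1:**
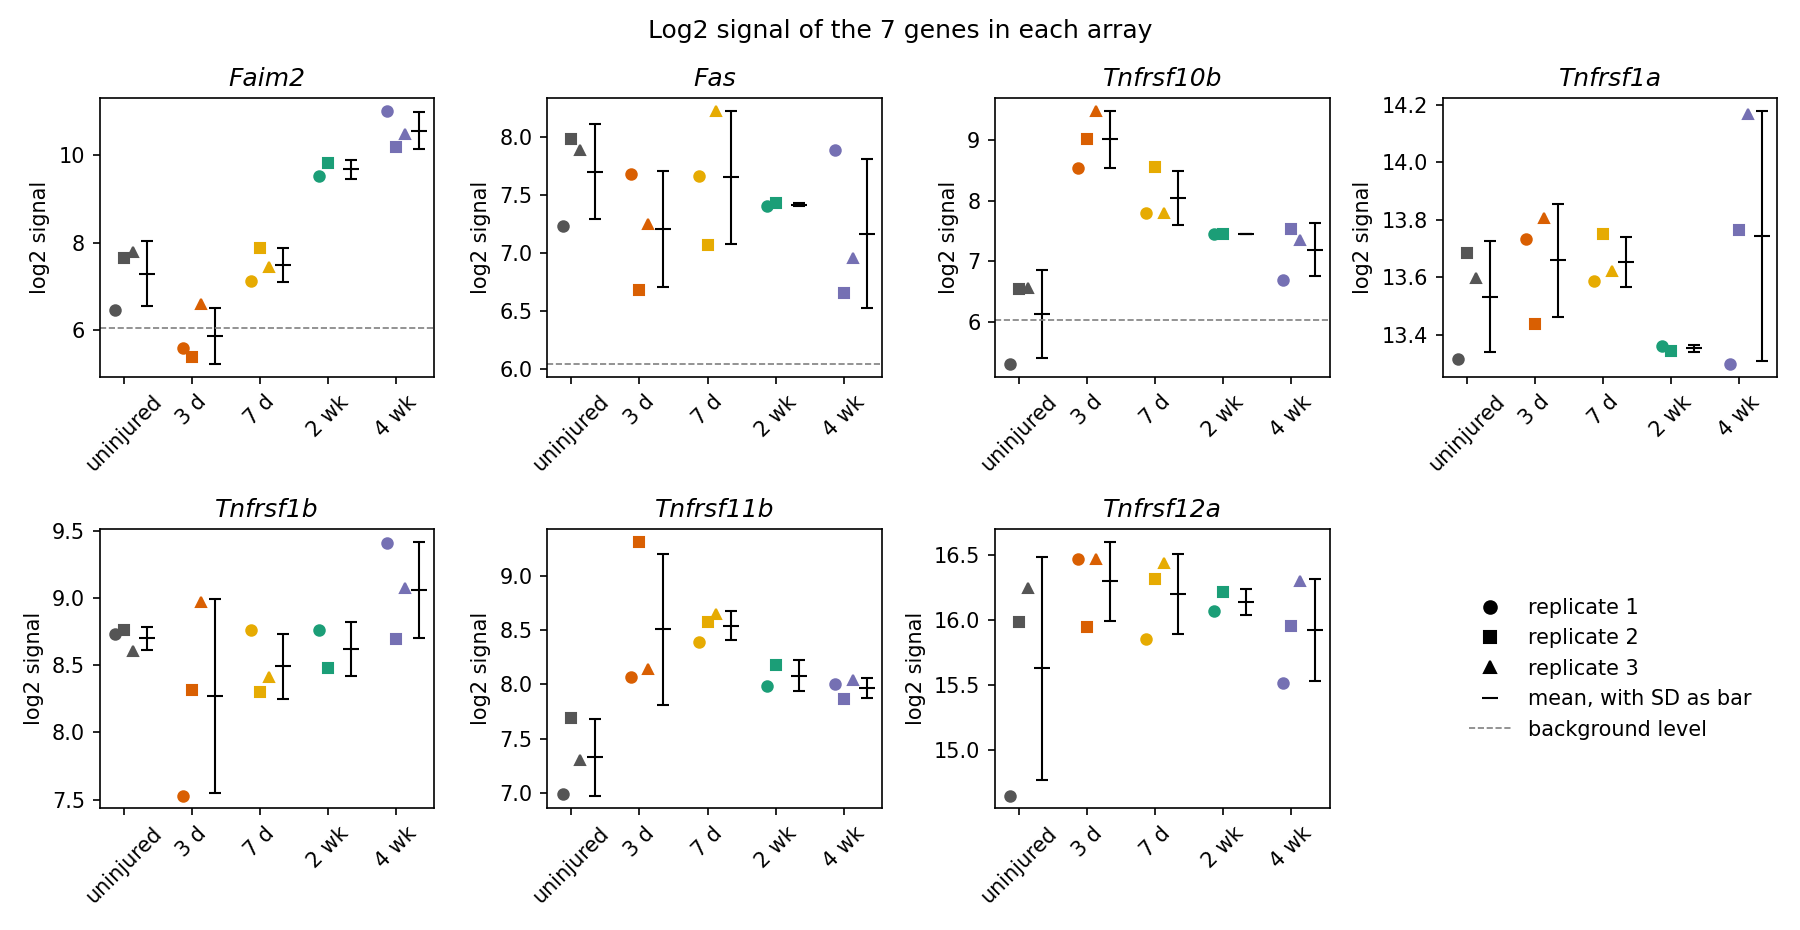
Log2 signal of the 7 genes in each array, with the 5 groups in time order on the x axis of each panel, symbols for the replicate number, the group mean with its SD beside the points, and the background level of 6.04 as a dashed line where it is in range. Faim2 was between 9.52 and 11.01 at 2 and 4 wk and at or below 7.79 in uninjured fibroblasts, while Tnfrsf10b was highest at 3 d, at 8.53 to 9.47.

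Because Faim2 is known mostly from neurons, markers of Schwann cells and neurons were read beside it. Only 1 of 7 measured markers, Tubb3, had a mean above background in uninjured fibroblasts. At 4 wk 2 of 7 did, and 1 of the 7 passed the test as higher, S100b, with 6.49, 5.75 and 6.49 at 4 wk against 4.33, 5.09 and 4.64 in uninjured fibroblasts. The log2 of the summed signal of the list was 8.56 to 9.07 at 4 wk and 8.42 to 8.96 in uninjured fibroblasts, and 9.47 to 10.5 at 3 d, where Faim2 was lowest. The part of such cells in the Faim2 signal was not tested.

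Among the death domain receptors, Tnfrsf10b was the gene whose level differed most between groups, and Fas and Tnfrsf1a had overlapping arrays at every time. Tnfrsf10b, the mouse death receptor for TRAIL, gave log2 signals of 5.31, 6.55 and 6.57 in uninjured fibroblasts, 8.53, 9.02 and 9.47 at 3 d, 7.79, 8.55 and 7.79 at 7 d, 7.46 and 7.46 at 2 wk, and 6.70, 7.53 and 7.35 at 4 wk. Every array after MI was above every uninjured array. The difference from uninjured fibroblasts was 2.86 at 3 d (SE 0.37, 7.27-fold), 1.90 at 7 d (3.73-fold), 1.31 at 2 wk (2.49-fold) and 1.05 at 4 wk (2.07-fold), and the interval at 4 wk was 0.26 to 1.84.

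The uninjured mean of Tnfrsf10b, 6.14 ± 0.72 (SD, n = 3), was close to the background level, and uninjured replicate 1 was below it. The folds are therefore what the array shows and not ratios of transcripts. In the order of levels the uninjured arrays lay apart from those at 4 wk, the arrays at 4 wk and 2 wk overlapped, 2 wk lay apart from 7 d, and 7 d and 3 d overlapped. All 5 arrays numbered 1 were below the mean of their group for Tnfrsf10b. Over all alternatives the difference at 3 d lay between 2.44 and 3.10.

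Fas, the receptor that Faim2 acts on, gave 7.23, 7.98 and 7.89 in uninjured fibroblasts, 7.68, 6.68 and 7.25 at 3 d, 7.66, 7.07 and 8.22 at 7 d, 7.41 and 7.43 at 2 wk, and 7.89, 6.66 and 6.96 at 4 wk. All groups overlapped with uninjured fibroblasts. The largest difference was -0.53 at 4 wk, with an interval of -1.33 to 0.26. Without the arrays numbered 1 it was -1.13, and Fas in replicate 1 at 4 wk was 1.08 above the other 2 arrays.

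Tnfrsf1a, the TNF receptor found on most cell types, varied least of the 7 genes. It gave 13.32, 13.68 and 13.60 in uninjured fibroblasts, 13.73, 13.44 and 13.81 at 3 d, 13.59, 13.75 and 13.62 at 7 d, 13.36 and 13.34 at 2 wk, and 13.30, 13.77 and 14.17 at 4 wk. Its group means spanned 0.39 on the log2 scale, under the median of 0.58 over all genes, and the widest interval of a difference from uninjured fibroblasts, at 2 wk, was -0.72 to 0.36. With the class of Y-linked signal in the fit, the difference at 2 wk was 0.08 in place of -0.18.

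Of the receptors without a death domain, Tnfrsf1b and Tnfrsf12a had arrays whose range overlapped with that of uninjured fibroblasts at every time. Tnfrsf1b, the second TNF receptor, known mainly from leukocytes and endothelium, gave 8.73, 8.76 and 8.60 in uninjured fibroblasts, 7.53, 8.31 and 8.97 at 3 d, 8.76, 8.30 and 8.41 at 7 d, 8.76 and 8.48 at 2 wk, and 9.41, 8.70 and 9.07 at 4 wk. At 7 d, when 9 of 11 macrophage markers passed the test as higher, its difference from uninjured fibroblasts was -0.21, with an interval of -0.87 to 0.46. At 4 wk it was 0.36, with an interval of -0.30 to 1.02. The 3 d arrays, where endothelial markers were low as given above, held both its lowest value and one above all uninjured arrays, and the part of endothelial cells in the Tnfrsf1b signal was not tested.

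Tnfrsf12a (Fn14), the receptor for TWEAK, gave 14.65, 15.99 and 16.25 in uninjured fibroblasts, 16.47, 15.95 and 16.47 at 3 d, 15.86, 16.31 and 16.44 at 7 d, 16.07 and 16.21 at 2 wk, and 15.52, 15.95 and 16.30 at 4 wk. Its lowest array was uninjured replicate 1, which lay 1.46 below the other 2 uninjured arrays. The difference of 0.67 at 3 d, with an interval of -0.10 to 1.44, became 0.09 without the arrays numbered 1. Its ligand Tnfsf12 was not analysed here.

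Tnfrsf11b, the decoy that binds RANKL (Tnfsf11) and TRAIL (Tnfsf10), gave 6.99, 7.69 and 7.30 in uninjured fibroblasts, 8.07, 9.31 and 8.14 at 3 d, 8.39, 8.58 and 8.65 at 7 d, 7.98 and 8.18 at 2 wk, and 8.01, 7.86 and 8.04 at 4 wk. Every array after MI was above every uninjured array. The difference was 1.18 at 3 d (2.27-fold), 1.21 at 7 d (2.32-fold), 0.75 at 2 wk (1.69-fold) and 0.64 at 4 wk (1.56-fold), and the intervals at 2 and 4 wk, 0.05 to 1.46 and 0.01 to 1.28, came close to 0. Without replicate 2 at 3 d, the highest array of all, the difference at 3 d was 0.78.

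**Figure D2:**
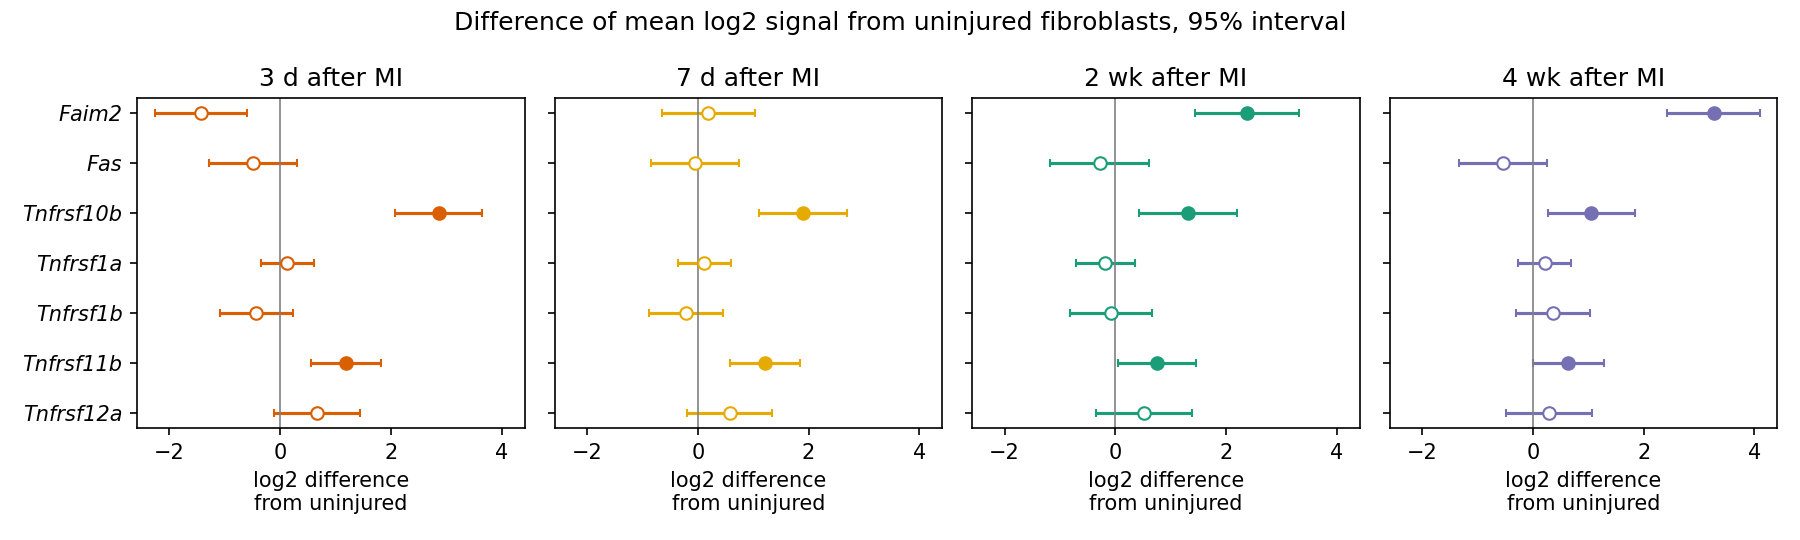
Difference in mean log2 signal of each time after MI from uninjured fibroblasts for the 7 genes, with the 95% interval of the fit. Points are filled where all arrays lay above, or all lay below, the uninjured arrays, and open where the ranges overlapped. Tnfrsf10b and Tnfrsf11b were filled and above 0 at all 4 times, and Faim2 at 2 wk (2.38) and 4 wk (3.26).

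By the fit across all genes, 3 of the 7 genes passed an adjusted p of 0.05 at 3 d (Tnfrsf10b and Tnfrsf11b higher, Faim2 lower), where 12.5% of all genes did. At 7 d 2 passed (Tnfrsf10b and Tnfrsf11b, against 8.11% of all genes), at 2 wk 1 (Faim2, against 2.48%) and at 4 wk 1 (Faim2, against 1.91%). Arrays of a time after MI did not overlap with uninjured arrays for 2 of the 7 genes at 3 d, 2 at 7 d, 3 at 2 wk and 3 at 4 wk, all of them higher, where 12.4%, 11.0%, 11.4% and 6.47% of all genes were higher without overlap. Nothing is read from these counts, since the same contrasts led to the choice of the genes.

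Over the 14 arrays, Tnfrsf10b and Tnfrsf11b had a Pearson correlation of 0.78 and Tnfrsf10b and Tnfrsf12a one of 0.70, while Faim2 had its highest with Tnfrsf1b, at 0.61, and -0.33 with Tnfrsf10b. These are descriptions over arrays that share the 5 groups. Like genes were searched among 11153 genes with a mean above background in at least 1 group. Genes with only a clone or model name had been left out of these. The most like Faim2 were Chad (0.97), Galr2 (0.96), Fam180a (0.95), Timp3 (0.94) and Tns1 (0.94). Chad encodes chondroadherin, a matrix protein of cartilage, Galr2 a galanin receptor, Timp3 a matrix-bound inhibitor of metalloproteinases and Tns1 the focal adhesion protein tensin 1. Chad had mean log2 signals of 7.90 in uninjured fibroblasts, 4.38 at 3 d, 7.55 at 7 d, 11.19 at 2 wk and 13.88 at 4 wk.

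The genes most like Tnfrsf10b were Timp1 (0.96), a secreted metalloproteinase inhibitor, Tmem176a (0.93) and Tyms (0.93), the thymidylate synthase of dividing cells. The mean of Timp1 was 11.32 in uninjured fibroblasts, 15.87 at 3 d, 14.24 at 7 d, 13.45 at 2 wk and 13.31 at 4 wk. Tnfrsf11b was most like Gtf3c1 (0.94), Gcsh (0.90) and Limd2 (0.90), and Tnfrsf12a most like Smim3 (0.91), Lmna (0.84) and Itprip (0.83). The first match was weaker, though not every later one, for Fas (Clmp, 0.87, then Tmem42, 0.80, and Dlgap3, 0.71), Tnfrsf1a (Pdcl2, 0.86, then Hnrnpul1, 0.85, and Tfe3, 0.85) and Tnfrsf1b (Cpeb1, 0.87, then Gabbr1, 0.86, and Mapk1ip1, 0.84).

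**Figure D3:**
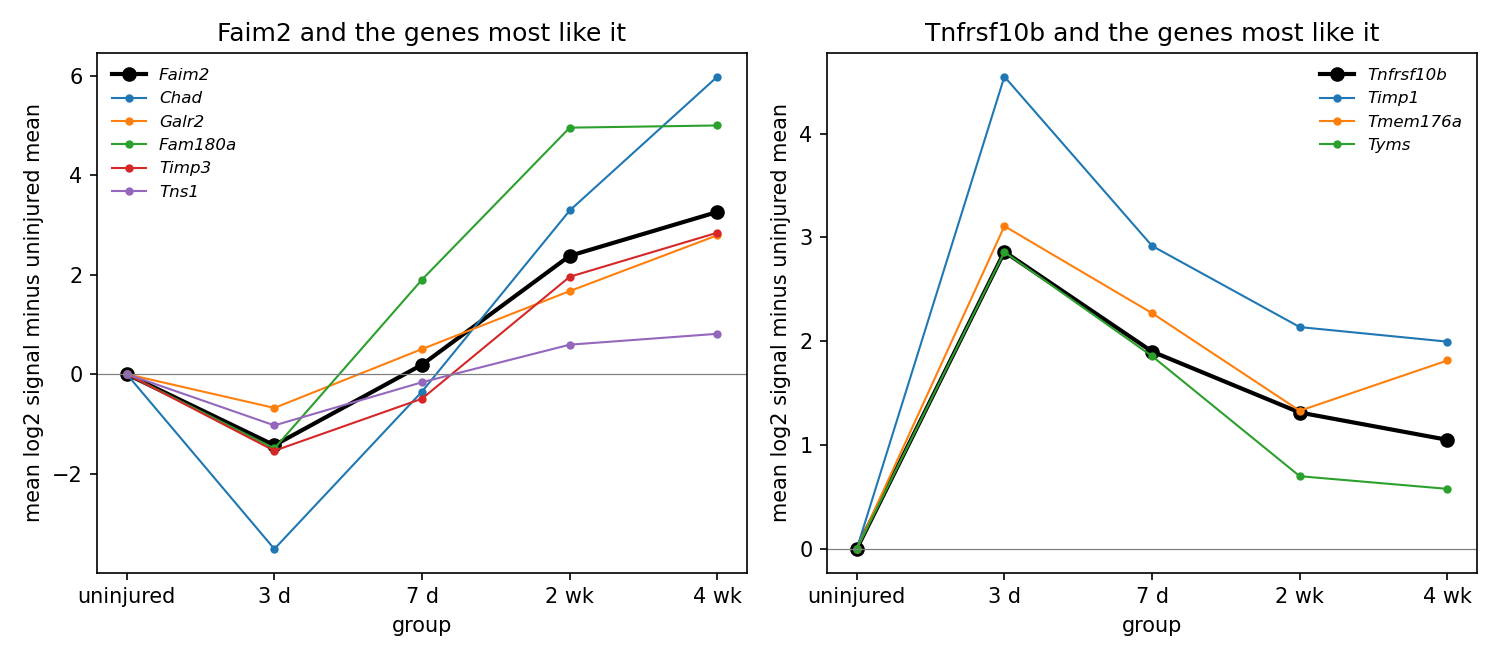
Mean log2 signal of each group minus the uninjured mean for Faim2 with the 5 genes most like it (left) and Tnfrsf10b with the 3 genes most like it (right), with the 5 groups in time order on the x axis. Faim2 and its like genes were below the uninjured mean at 3 d and above it at 2 and 4 wk, and Tnfrsf10b and its like genes were highest at 3 d. The 3 d means of Faim2, Chad, Galr2 and Fam180a were under the background level.

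The rest of the pathway was read from 7 lists with 107 of 116 genes measured. At 3 d 8 of the 107 rose and 11 fell, at 7 d 3 rose and 10 fell, at 2 wk 0 rose and 2 fell, and at 4 wk 2 rose and 2 fell, by limma with an adjusted p under 0.05. The shares called, 17.8%, 12.1%, 1.87% and 3.74%, stand beside 12.5%, 8.11%, 2.48% and 1.91% of all genes. The median difference of the 107 genes was 0.01, -0.06, -0.09 and -0.02 at the 4 times, and that of all genes -0.02, 0.02, -0.02 and 0.01.

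Of the measured ligands of these receptors, Tnf, Fasl and Tnfsf11 had means under the background level of 6.04 in every group. Tnf had a mean log2 signal of 4.57 in uninjured fibroblasts and of 4.48 to 4.91 after MI, Fasl (Fas ligand) one of 4.69 in uninjured fibroblasts and 4.75 to 4.92 after MI, and Tnfsf11 one of 4.61 in uninjured fibroblasts and 4.51 to 5.03 after MI. Tnfsf10 (TRAIL) averaged 6.42 in uninjured fibroblasts, 5.50 at 3 d, 5.92 at 7 d, 5.88 at 2 wk and 6.12 at 4 wk, with an adjusted p of 0.26 at 3 d. Lta (lymphotoxin alpha), which also binds both TNF receptors, averaged 6.59 in uninjured fibroblasts, 6.29 at 3 d, 6.67 at 7 d, 6.21 at 2 wk and 6.53 at 4 wk, above background in every group, with adjusted p of 0.73 or higher by limma. Of 16 measured ligand genes, 2 fell at 3 d and the same 2 at 7 d. Tnfsf9 (the ligand of 4-1BB) averaged 7.58 at 3 d and 7.51 at 7 d against 9.10 in uninjured fibroblasts (limma, adjusted p = 0.014 and 0.015). Its calls were lost without uninjured replicate 2 or 3 (adjusted p of 0.058 to 0.067), and the call at 7 d also without replicate 2 at 7 d. The call at 3 d was also lost with only the 2 groups compared (adjusted p = 0.056), and that at 7 d with no moderation of the variances (adjusted p = 0.059). Eda (ectodysplasin) averaged 7.34 at 3 d against 8.80 in uninjured fibroblasts (limma, adjusted p = 0.0018) and 7.88 at 7 d (adjusted p = 0.044), where the call was lost on leaving out any 1 of 9 arrays (adjusted p up to 0.19), with only the 2 groups compared, with the Y-linked class in the fit and with no moderation (adjusted p of 0.079 to 0.14).

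Of 21 other receptors of the superfamily, 2 rose and 1 fell at 3 d. Tnfrsf26 gave 10.82, 9.89 and 10.14 at 3 d against 7.85, 6.74 and 6.77 in uninjured fibroblasts, a difference of 3.16 ± 0.35 (SE, 8.94-fold, limma, adjusted p = 4.6e-05). At 7 d it was 1.63 higher (adjusted p = 0.0099), a call lost without uninjured replicate 2 or 7 d replicate 2 (adjusted p of 0.055 and 0.053). Tnfrsf23, a mouse decoy receptor for TRAIL, gave 9.84, 8.93 and 9.83 at 3 d against 8.27, 7.93 and 6.88 in uninjured fibroblasts (limma, adjusted p = 0.0027). All arrays of both genes at 3 d were above the uninjured arrays, as they were for Tnfrsf10b, the TRAIL death receptor.

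Cd40, a receptor known from B cells and antigen-presenting cells, fell at 3 d to 5.84, under the background level, against 6.89 in uninjured fibroblasts (limma, adjusted p = 0.0099), a call lost without uninjured replicate 3 (adjusted p = 0.054). Tnfrsf25 (death receptor 3) was higher at 4 wk, with 8.64, 8.64 and 8.53 against 7.88, 6.62 and 7.02 in uninjured fibroblasts (difference 1.43, limma, adjusted p = 0.017). That call was lost when any 1 of 4 arrays was left out (uninjured replicate 2 or 3, or 4 wk replicate 1 or 2, adjusted p of 0.060 to 0.086), with only the 2 groups compared (adjusted p = 0.12) and with no moderation (adjusted p = 0.064).

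Among adaptors, caspases and their inhibitors, 3 of 19 rose and 2 fell at 3 d, and 2 rose and 1 fell at 7 d. The 3 that rose were Ripk3, Mlkl and Casp8. Ripk3 gave 10.82, 11.00 and 10.75 at 3 d and 10.16, 10.81 and 10.24 at 7 d against 7.63, 7.91 and 8.16 in uninjured fibroblasts. Its difference was 2.96 ± 0.22 at 3 d (SE, 7.78-fold, limma, adjusted p = 1.7e-06) and 2.50 ± 0.22 at 7 d (5.67-fold, adjusted p = 9.8e-06), and both held under all 23 alternatives. At 2 and 4 wk it was 0.89 and 0.59 higher, with adjusted p of 0.09 and 0.35, although all arrays stayed above the uninjured ones.

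Mlkl gave 12.31, 13.01 and 12.26 at 3 d against 11.38, 11.10 and 10.82 in uninjured fibroblasts (difference 1.43, limma, adjusted p = 0.0034), and averaged 11.47 at 7 d (adjusted p = 0.62). Casp8 gave 11.79, 11.90 and 11.63 at 3 d against 10.15, 11.05 and 10.45 in uninjured fibroblasts (difference 1.22, limma, adjusted p = 0.0078). At 7 d Casp8 was 1.08 higher (adjusted p = 0.024), and this call was lost without uninjured replicate 1 or 3, without 7 d replicate 1 or 2, and without all arrays numbered 1 (adjusted p of 0.062 to 0.20). It was also lost with only the 2 groups compared, with the Y-linked class in the fit and with no moderation (adjusted p of 0.054 to 0.13). All 3 genes are also expressed in leukocytes. Macrophage markers were above background for 8 of 11 genes at 3 d and 11 of 11 at 7 d against 4 of 11 in uninjured fibroblasts. The log2 of their summed signal was 9.72 to 11.5 at 3 d and 13.1 to 15.3 at 7 d against 9.02 to 9.55 in uninjured fibroblasts, and the part of such cells in these 3 genes was not tested.

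The 2 that fell at 3 d were Rnf31 and Rbck1, subunits of the linear ubiquitin ligase that stabilizes the TNF receptor complex. Sharpin, a further subunit named after its values were seen, did not pass, with 10.53 at 3 d against 10.75 in uninjured fibroblasts. Rnf31 averaged 8.56 at 3 d against 10.33 in uninjured fibroblasts (limma, adjusted p = 0.0054), and Rbck1 8.85 at 3 d against 9.83 in uninjured fibroblasts (adjusted p = 0.034). Rbck1, named after its values were seen, lost its call without uninjured replicate 2 or 3 or 3 d replicate 2 or 3 (adjusted p of 0.078 to 0.16), and with quantile normalization, only the 2 groups compared or no moderation (adjusted p of 0.053 to 0.087). Birc3, an inhibitor of apoptosis at the same complex, averaged 9.25 at 7 d against 11.03 in uninjured fibroblasts (limma, adjusted p = 0.031), a call lost when any 1 of 5 arrays was left out (each uninjured replicate, and 7 d replicate 2 or 3, adjusted p of 0.054 to 0.12), with the Y-linked class in the fit (adjusted p = 0.085) and with no moderation (adjusted p = 0.11). Fadd and Cflar, the adaptor and the caspase-8 inhibitor, did not pass at any time, with differences at 3 d of -0.57 (adjusted p = 0.28) and -0.67 (adjusted p = 0.14).

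Of 19 TRAF and NF-kappaB pathway genes, 1 rose at 3 d and 1 fell at 7 d. Traf4 was 0.55 higher at 3 d (limma, adjusted p = 0.045), a call lost when any 1 of the 14 arrays was left out (adjusted p of 0.054 to 0.15), and with quantile normalization, only the 2 groups compared, no arrays numbered 1 or the Y-linked class in the fit (adjusted p of 0.060 to 0.17). Traf5 fell at 7 d, at 4.04 against 5.31 in uninjured fibroblasts (limma, adjusted p = 0.0040), both under the background level. Nfkbia, the inhibitor of NF-kappaB that NF-kappaB itself induces, averaged 13.71 in uninjured fibroblasts, 13.43 at 3 d, 13.29 at 7 d, 14.04 at 2 wk and 14.10 at 4 wk, with adjusted p of 0.81 or higher.

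Of 20 TNF-inducible target genes, 1 rose and 3 fell at 3 d, 4 fell at 7 d, 2 at 2 wk and 2 at 4 wk. The median difference of the list was 0.31 at 3 d, opposite to most of its calls there, and -0.56, -0.41 and -0.47 at 7 d, 2 wk and 4 wk, against -0.02, 0.02, -0.02 and 0.01 over all genes at the 4 times. Among members that did not pass at 3 d and are named after their values were seen, Mmp3 (stromelysin 1) averaged 13.55 at 3 d against 10.29 in uninjured fibroblasts (limma, adjusted p = 0.053), the neutrophil chemokine Cxcl2 10.82 at 3 d against 8.11 in uninjured fibroblasts (adjusted p = 0.17), Tnfaip3 (A20) 10.39 at 3 d against 8.43 in uninjured fibroblasts (adjusted p = 0.11), and the cytokine Lif 7.70 at 3 d against 5.95 in uninjured fibroblasts (adjusted p = 0.078). Arrays of the 2 groups overlapped for each of these 4 genes. Others that did not pass had a lower mean at 3 d than in uninjured fibroblasts. Among those, also named after their values were seen, were Cxcl1 (10.79 against 11.40), Il6 (15.13 against 15.46) and Cxcl10 (6.58 against 6.76). Irf1, a transcription factor induced by interferon and TNF, gave 8.59, 8.30 and 9.25 at 3 d and 9.58, 9.32 and 9.39 at 7 d against 11.06, 12.02 and 11.85 in uninjured fibroblasts. The difference was -2.93 at 3 d (limma, adjusted p = 3.8e-05) and -2.21 at 7 d (adjusted p = 0.00055). Tnfaip2 was 1.88, 2.46 and 2.01 lower at 3 d, 7 d and 2 wk (limma, adjusted p = 0.00071, 0.00013 and 0.0043), and the call at 2 wk was lost without 2 wk replicate 2 (adjusted p = 0.086). With the Y-linked class in the fit, in which both 2 wk arrays are of the low class, the difference at 2 wk was -1.47 (adjusted p = 0.25). The other gene that fell at 3 d, named after its values were seen, was the adhesion molecule Icam1, with 12.01, 9.77 and 11.46 at 3 d against 11.99, 12.68 and 13.13 in uninjured fibroblasts (adjusted p = 0.042). The groups overlapped, and the difference of -1.52 was -0.86 without 3 d replicate 2. The Icam1 call was lost on leaving out any 1 of 10 arrays (adjusted p up to 0.17), with only the 2 groups compared, with the Y-linked class in the fit and with no moderation (adjusted p of 0.056 to 0.12). Endothelial cells also express Icam1, and the part of the lower endothelial markers at 3 d in its difference was not tested.

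The Irf1 promoter is shown because this gene had the largest fall at 3 d among the target genes and because its 250 bases before the first of 2 annotated starts hold both TTCNNNGAA and the NF-kappaB consensus, in capitals in this order (GRCm38.p6, plus strand, chr11:53769764-53770013). The other annotated start holds 0 matches of either.
Irf1: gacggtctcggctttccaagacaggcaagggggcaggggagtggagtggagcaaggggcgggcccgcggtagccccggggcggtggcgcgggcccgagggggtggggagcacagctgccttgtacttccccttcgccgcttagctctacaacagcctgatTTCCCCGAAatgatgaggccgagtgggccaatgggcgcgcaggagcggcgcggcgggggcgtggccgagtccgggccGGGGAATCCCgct

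The monocyte chemokines Ccl2 and Ccl7 were lower late after MI. Ccl7 gave 8.41, 8.15 and 7.26 at 7 d, 6.71 and 7.22 at 2 wk, and 7.32, 7.64 and 7.25 at 4 wk, against 9.67, 10.83 and 10.19 in uninjured fibroblasts. The differences were -2.29, -3.27 and -2.83 (limma, adjusted p = 0.0061, 0.0031 and 0.0044), and the call at 2 wk was lost without 2 wk replicate 1 (adjusted p = 0.066) and with the Y-linked class in the fit (adjusted p = 0.085). Ccl2 was 1.60 higher at 3 d (adjusted p = 0.034) and 1.95 lower at 4 wk (adjusted p = 0.046). The call at 3 d was lost when any 1 of 4 arrays was left out (uninjured replicate 1 or 3, or 3 d replicate 1 or 3) and that at 4 wk when any 1 of 11 was, with adjusted p up to 0.21. Without the arrays numbered 1 the Ccl2 difference at 3 d was 0.79 (adjusted p = 0.23). The call at 3 d was also lost with only the 2 groups compared (adjusted p = 0.090) and with no moderation (adjusted p = 0.0998), and that at 4 wk with the Y-linked class in the fit (adjusted p = 0.11) and with no moderation (adjusted p = 0.18). Ptgs2 (cyclooxygenase 2) averaged 10.38 at 7 d against 12.71 in uninjured fibroblasts (adjusted p = 0.042), a call lost on leaving out any 1 of 9 arrays (adjusted p up to 0.17), with the Y-linked class in the fit (adjusted p = 0.10) and with no moderation (adjusted p = 0.14).

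**Figure D4:**
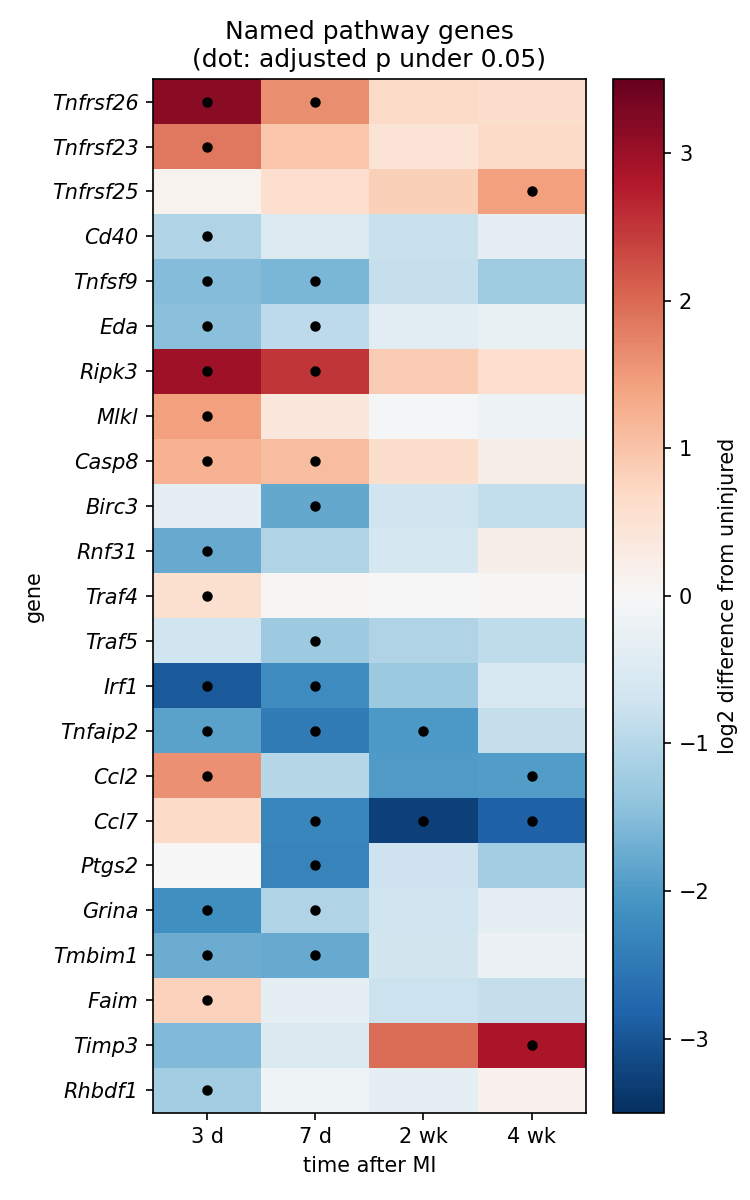
Difference in mean log2 signal from uninjured fibroblasts (colour) of 23 named pathway genes (rows) at 3 d, 7 d, 2 wk and 4 wk after MI (columns), with a dot where the adjusted p was under 0.05. Ripk3 and Tnfrsf26 were the most raised at 3 d (2.96 and 3.16), and Ccl7 the most lowered at 2 wk (-3.27).

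No relative of Faim2 passed the test as higher at 2 or 4 wk. Of 7 Faim and TMBIM family genes other than Faim2, 1 rose and 2 fell at 3 d, 2 fell at 7 d, and 0 passed at 2 or 4 wk. Grina, which like Faim2 belongs to the TMBIM family, gave 11.64, 11.83 and 12.24 at 3 d against 13.83, 14.34 and 13.95 in uninjured fibroblasts (difference -2.14, limma, adjusted p = 0.00019). It was 1.06 lower at 7 d (adjusted p = 0.034), a call lost when any 1 of 5 arrays was left out (uninjured replicate 2 or 3, or any at 7 d, adjusted p of 0.068 to 0.15), with the Y-linked class in the fit (adjusted p = 0.078) or with no moderation (adjusted p = 0.075). It was 0.31 lower at 4 wk (adjusted p = 0.97), where Faim2 was 3.26 higher.

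Tmbim1 averaged 7.95 at 3 d and 7.90 at 7 d against 9.68 in uninjured fibroblasts (limma, adjusted p = 0.023 and 0.028). The call at 3 d was lost without uninjured replicate 1 or 3 or 3 d replicate 2, and that at 7 d without uninjured replicate 1 or 3 or 7 d replicate 2 or 3 (adjusted p of 0.056 to 0.13). With no moderation both calls were lost (adjusted p = 0.077 and 0.098), and the call at 7 d also with the Y-linked class in the fit (adjusted p = 0.053). Faim, which shares the Fas-inhibiting role in its name and not the fold of Faim2, averaged 9.69 at 3 d against 8.89 in uninjured fibroblasts (adjusted p = 0.049), a call lost on leaving out any 1 of 11 arrays (adjusted p up to 0.20) and under 6 other alternatives (adjusted p of 0.052 to 0.10).

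Of the 5 genes that act in the shedding of TNF receptors, Rhbdf1, a cofactor of the sheddase Adam17, averaged 11.74 at 3 d against 12.95 in uninjured fibroblasts (limma, adjusted p = 0.00067). Timp3, an inhibitor of that sheddase and one of the 5 genes most like Faim2, gave 13.27, 10.70 and 10.85 at 4 wk against 8.77, 9.14 and 8.38 in uninjured fibroblasts (difference 2.85, limma, adjusted p = 0.019). Its call was lost without uninjured replicate 3 (adjusted p = 0.087), without the arrays numbered 1 (adjusted p = 0.058), with only the 2 groups compared (adjusted p = 0.11) and with no moderation (adjusted p = 0.12), and replicate 1 at 4 wk was its highest array, as it was for Faim2.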

How the data were processed

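Per the labels, Trizol-extracted RNA of sorted GFP-positive cells was turned into biotin-labelled target (GeneChip 3' IVT Pico) for Clariom S arrays for mouse. The authors deposited log2 signals per transcript cluster, and the submitters' processing notes name Affymetrix Expression Console. The software version, how probes were summarized and the build are not given in the sources used here. The signals were used without further normalization.

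Of 28846 rows, 6640 were controls and 64 unmapped. Of the 22142 transcript clusters, 19527 had a gene symbol. A gene with several rows (33 genes) was represented by its brightest row on average, and 19494 genes remained.

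Group means of all 14 arrays entered 1 linear model (limma 3.58.1, R 4.3.3, 9 residual and 4.53 prior degrees of freedom), with Benjamini-Hochberg adjustment over all genes at 0.05. The fit was tested on simulated data with independent noise in each array, which leaves out the shared deviation of same-numbered arrays. Array number limits the precision, and p-values measure the spread between samples labelled as biological replicates.

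The 7 genes and all lists were chosen with earlier results of these data known. Named pathway genes passed the fit in at least 1 comparison with uninjured (up to the 5 with the largest difference per list), or are the best known of a list. Alternatives were array centring, quantile normalization, a background filter, 2-group fits, the replicate block, leaving out the arrays numbered 1 or any 1 array, the class of Y-linked signal, no moderation, and the mean of a gene's rows.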

Additional observations from a re-analysis of the deposited data

Results flagged for a closer look

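Faim2 was higher than the uninjured mean in every array at 2 wk and lower in every array at 3 d, with differences of 2.38 and -1.43 that are 3.81 apart on the log2 scale. At 4 wk every array was likewise higher, and the differences of 3.26 and -1.43 are 4.69 apart. For Tnfrsf1a, every array at 7 d was above the uninjured mean and every array at 2 wk below it, but the differences of 0.12 and -0.18 are only 0.3 apart, and with the class of Y-linked signal in the fit (both 2 wk arrays are of the low class) the difference at 2 wk was 0.08. These differences between times were not tested. Ccl2 passed the test as higher at 3 d and as lower at 4 wk, with differences of 1.60 and -1.95 that are 3.55 apart, and the difference between these times was not tested.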

How the results depend on the processing

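No called difference of the 7 genes or of the named pathway genes changed direction. Of the 40 differences of the 7 genes that did not pass the fit (4 times against uninjured, 3 steps between times), 15 changed sign under some alternative. Among them, Tnfrsf1a at 2 wk was 0.08 in place of -0.18 with the Y-linked class in the fit, Tnfrsf1b was -0.28 in place of 0.22 for 7 d over 3 d without the arrays numbered 1, and Tnfrsf12a at 4 wk lay between -0.19 and 0.60. Of the 7 genes, the count called at 3 d was 1 in place of 3 with only the 2 groups compared, that at 7 d was 1 in place of 2 without the arrays numbered 1 and with no moderation, and that at 2 wk was 0 in place of 1 with the class of Y-linked signal in the fit and with no moderation. With 1 array left out, the counts of the 7 genes were 1 to 3 at 3 d, 1 to 2 at 7 d, 0 to 1 at 2 wk and 1 at 4 wk. The call of Faim2 at 3 d was lost with only the 2 groups compared and with no moderation. It was also lost without uninjured replicate 2 or 3 and without 3 d replicate 1 or 2. The call of Tnfrsf11b at 3 d was lost with only the 2 groups compared, without uninjured replicate 1 or 3 and without 3 d replicate 2. The count at 3 d was 1 without uninjured replicate 3 or 3 d replicate 2, that at 7 d was 1 without uninjured replicate 1 or 3 or 7 d replicate 2 or 3, and that at 2 wk was 0 without either 2 wk replicate. Fits with arrays left out hold fewer arrays, and the cause of the changed counts and lost calls was not tested.

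Of the pathway genes, the count at 7 d (13) was 7 with the Y-linked class and 6 with no moderation, that at 2 wk (2) was 5 with only 2 groups, 9 without the arrays numbered 1 and 0 with the Y-linked class, and that at 4 wk (4) was 2 with only 2 groups and 1 with no moderation. With 1 array left out these counts were 11 to 20 at 3 d, 5 to 15 at 7 d, 1 to 7 at 2 wk and 1 to 5 at 4 wk. Over all genes, the count at 7 d (1581) was 1024 with only 2 groups, that at 2 wk (484) was 1044 without the arrays numbered 1, 106 with the Y-linked class and 275 with no moderation, and that at 4 wk (372) was 198 with only 2 groups and 223 with no moderation. With 1 array left out they were 1739 to 2680 at 3 d, 1073 to 1713 at 7 d, 154 to 804 at 2 wk and 236 to 372 at 4 wk.

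The replicate numbers did not meet the rule for pairing, since arrays with the same number correlated in their deviations over 0.1 in 10 of 10 pairs numbered 1 and 6 of 6 numbered 3, but in 9 of 10 numbered 2. The median correlation was 0.45 for pairs numbered 1, 0.27 for those numbered 2 and 0.24 for those numbered 3. For pairs with different numbers it was -0.26, with 15 of 52 over 0.1. Same-numbered arrays thus deviated together, while the adjusted p given above come from the fit without the replicate block. With the replicate block, 3717, 2453, 830 and 673 of all genes were called at the 4 times, of the 7 genes 2 at 2 wk and 2 at 4 wk (Tnfrsf10b added to Faim2), and of the pathway genes 4 at 2 wk. Values near the background level of 6.04 limit what the array resolves, as for Faim2 at 3 d, Tnfrsf10b in uninjured fibroblasts and most ligands.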
